A study of Homo sapiens with 12 samples.

Results

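Human chromosome 1 is described here by its protein-coding genes, taken in their order along the 2 arms. The members are the genes that the count table places on chromosome 1, types as protein_coding and lists with at least 200 reads summed over the 12 libraries. They were chosen by this summed read count, by type and by position, and the chromosome itself was taken up with earlier results of these data known. The rule kept 1220 of the 2037 protein-coding genes of the chromosome, out of 58233 genes in the table. A start position below 123 Mb put 704 members on the short arm, and the other 516 lie on the long arm. Just outside the limit were MFSD4A, NKAIN1 and C1orf204 with 197, 198 and 199 summed reads, and just inside were TGFB2, ADAMTSL4 and SH2D2A with 200, 204 and 209. All 1220 members passed the filter on low counts and entered the test. A member whose reads come from 1 group of libraries could enter only through that group.

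The cells were HCT116, a colorectal carcinoma line. The parental line, HCT116 Tet-OsTIR1, expresses the rice F-box protein TIR1 from the AAVS1 locus under a doxycycline-inducible promoter, and the SDS22-degron line derived from it carries, in addition, a degron and mClover tag at the end of PPP1R7, the gene of SDS22. SDS22 is a regulatory partner of protein phosphatase-1. Each line was left untreated or received doxycycline at 2 µg/ml together with the auxin analog IAA at 500 µM for 48 h (written Dox/IAA), with 3 libraries in each of the 4 groups. The treatment directs the tagged SDS22 protein to the proteasome, and the parental line, which has no tagged SDS22, shows what Dox and IAA do without it. Individual colonies were expanded after the tag was introduced, so the SDS22-degron line may stem from 1 clone, and a line difference between untreated cells includes whatever separates that clone from the parental culture.

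Chromosome 1 is the longest human chromosome, and its centromere separates a short arm (1p) from a long arm (1q). Neighbouring genes rarely share a function, so a 10 Mb stretch holds enzymes, receptors and regulators of many kinds, although some families lie in clusters, such as the S100 calcium-binding proteins on the long arm. The median over many unrelated neighbours therefore describes a region rather than a pathway. In tumours, loss of short-arm material and gain of long-arm material are among the recurrent changes of this chromosome. The files hold RNA counts only: the number of gene copies was not measured, and in bulk RNA fewer cells with a transcript and less of it per cell cannot be told apart.

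RefSeq lists 300-base promoter windows (250 bases before and 50 after a transcript start, build GRCh38.p14) for 1011 of the 1220 members. The windows of SAMD13, PRKACB and GNG5 are shown because these neighbours had 3 of the lowest line differences of the short arm, and that of IL12RB2 because it and the adjacent IL23R were read only after Dox/IAA. Each is written 5′ to 3′ on the strand of its gene, with every CG dinucleotide in capitals.
SAMD13, chr1:84298288-84298587, plus strand: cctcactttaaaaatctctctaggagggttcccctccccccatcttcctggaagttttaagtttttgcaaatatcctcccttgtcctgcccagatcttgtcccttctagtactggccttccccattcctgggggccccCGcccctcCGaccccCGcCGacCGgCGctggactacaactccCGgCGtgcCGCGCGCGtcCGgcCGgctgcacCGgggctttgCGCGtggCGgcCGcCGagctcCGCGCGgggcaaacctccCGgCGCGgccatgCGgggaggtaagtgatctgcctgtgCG
PRKACB, chr1:84077829-84078128, plus strand: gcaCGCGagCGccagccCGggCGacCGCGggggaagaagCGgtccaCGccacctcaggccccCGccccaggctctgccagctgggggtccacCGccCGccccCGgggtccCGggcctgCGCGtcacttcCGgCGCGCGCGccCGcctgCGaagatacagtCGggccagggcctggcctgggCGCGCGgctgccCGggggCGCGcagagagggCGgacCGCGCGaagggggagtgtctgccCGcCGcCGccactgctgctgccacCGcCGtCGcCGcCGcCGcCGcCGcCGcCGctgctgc
GNG5, chr1:84506532-84506831, minus strand: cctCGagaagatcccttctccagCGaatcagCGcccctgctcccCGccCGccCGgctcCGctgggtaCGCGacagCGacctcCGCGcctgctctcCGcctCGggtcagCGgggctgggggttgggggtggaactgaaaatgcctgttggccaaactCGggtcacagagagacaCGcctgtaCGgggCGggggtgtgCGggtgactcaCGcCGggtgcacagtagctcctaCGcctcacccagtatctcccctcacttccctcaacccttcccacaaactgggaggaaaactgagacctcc
IL12RB2, chr1:67307114-67307413, plus strand: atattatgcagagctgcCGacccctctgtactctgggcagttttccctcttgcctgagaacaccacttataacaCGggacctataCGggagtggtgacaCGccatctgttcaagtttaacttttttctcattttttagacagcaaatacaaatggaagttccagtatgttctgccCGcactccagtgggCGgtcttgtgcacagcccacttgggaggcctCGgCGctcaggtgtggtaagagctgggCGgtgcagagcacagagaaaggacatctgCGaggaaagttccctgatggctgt
RefSeq lists 5 starts for PRKACB, 2 each for SAMD13 and IL12RB2 and 1 for GNG5, and 1 window per gene is shown. The counts below hold for the window shown. The letters CG occur 47 times in the PRKACB window, and 3.95% of the 1442 windows listed for members hold at least as many. They occur 28 times in SAMD13 (40.5% hold as many), 23 times in GNG5 (56.2%) and 10 times in IL12RB2 (83.4%). The median over all member windows was 25. The 3 neighbours with lower counts thus range from a CG-rich window to ones near the median of the chromosome, while IL12RB2 lies in the CG-poor part.

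The libraries held 12133915 to 14657508 counted reads, with a median of 12662965, and chromosome 1 transcripts were among the 16657 genes tested over the whole table. The tagged gene, PPP1R7 on chromosome 2, had 43.7 ± 3.82 CPM (read counts scaled to library size) in untreated parental and 44.0 ± 2.95 in untreated SDS22-degron cells (mean ± SD, n = 3), which checks nothing since the degron acts on the protein. Of 8 colorectal epithelial marker genes, 7 had at least 1 CPM on average (KRT8 had 1435 CPM, LGALS4 0.0183), and their summed level was 2938 to 4470 CPM over all libraries. Of the 6 fibroblast, 6 haematopoietic and 4 endothelial markers, 1, 1 and 0 reached 1 CPM, and 3, 2 and 1 were at 0 in every library. The only fibroblast marker at that level was COL1A1 at 18.5 CPM.

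The short arm of chromosome 1 gave fewer transcripts in SDS22-degron than in parental cells, before and after Dox/IAA. In untreated cells the median log2 fold change of its 704 members, SDS22-degron minus parental, was -0.21, a level of 86.4% of the parental one. The long arm had a median of -0.083 (94.4%) over 516 members, and the 10617 protein-coding genes of the other chromosomes that met the same read limit had 0.015. Members of the short arm with a value below 0 made up 79.4%, against 63.0% on the long arm and 47.3% on the other chromosomes. With p-values of edgeR's quasi-likelihood test adjusted by Benjamini-Hochberg over all 16657 genes, 297 short-arm members were lower and 49 higher (called, adjusted p under 0.05), and 121 long-arm members were lower and 51 higher. Of all genes tested, 15% were called lower and 13.2% higher. Of the protein-coding genes of the other chromosomes with the same read limit, 16.4% and 16.7% were. Against that background the share of lower calls was 42.2% on the short arm and 23.4% on the long arm. Few of these differences were large, since only 11 short-arm members were lower by more than 1 on the log2 scale and 11 were higher by more than 1, where 1.18% and 2.58% of all genes were.

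The arm medians were similar in each library of a group. Relative to the mean of the untreated parental libraries, the short-arm medians of log2 CPM were -0.23, -0.20 and -0.18 in the untreated SDS22-degron libraries, -0.18, -0.18 and -0.10 in the treated SDS22-degron libraries and 0.043, 0.058 and 0.046 in the treated parental libraries. The untreated parental libraries themselves lay between -0.01 and 0.01. On the long arm the untreated SDS22-degron libraries were at -0.076, -0.063 and -0.089. Every SDS22-degron library lay below every parental library on the short arm, and in each untreated SDS22-degron library the short arm was further below 0 than the long arm. As a share of all counted reads, every gene of the short arm together took 5.54% to 5.57% in untreated parental and 4.71% to 4.92% in untreated SDS22-degron libraries. The long arm took 3.67% to 3.70% and 3.41% to 3.46%. The long-arm median was closer to 0 without untreated parental replicate 2, at -0.054, and the mean over its members was -0.0098.

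**Figure D1:**
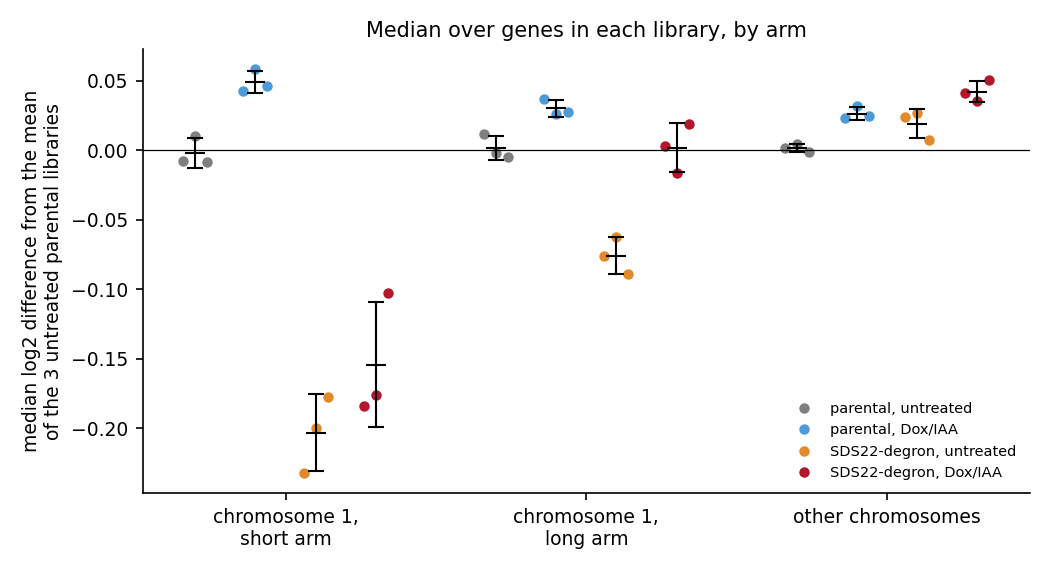
Median over genes of the log2 CPM difference from the mean of the 3 untreated parental libraries, for the short arm, the long arm and the other chromosomes. Each point is 1 library, coloured by group, and the black mark and bar give the mean and SD of the 3 libraries. On the short arm the 6 SDS22-degron libraries lie below the 6 parental ones.

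Between the untreated lines the short-arm shift was seen across most of the distribution of its members. The middle of the short-arm distribution ran from -0.36 (lower quartile) to -0.04 (upper quartile), against -0.17 to 0.19 on the other chromosomes, a similar width moved downward. Among members of low GC content, up to 40%, the median was -0.26 (103 genes), and in the 4 classes of higher GC content it lay between -0.21 and -0.19. By summed reads it was -0.024 for the 82 members under 1000 and -0.24 for the 87 over 20000. Each GC class of the short arm was thus below 0, whereas the least-read class was close to it. Between the corresponding classes of the other chromosomes the medians were 0.0011 to 0.043 by GC content and -0.014 to 0.095 by reads.

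**Figure D2:**
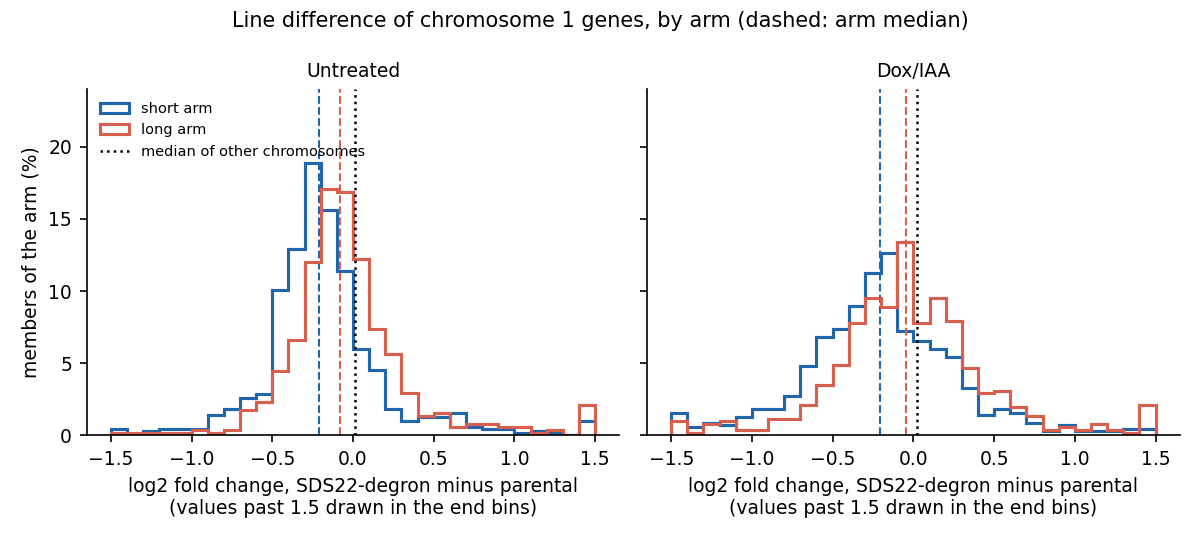
Log2 fold changes of the chromosome 1 members, SDS22-degron minus parental, as the percentage of each arm's members in bins of 0.1, for untreated (left) and Dox/IAA-treated cells (right). Dashed lines are the arm medians (-0.21 and -0.083 untreated, -0.20 and -0.045 treated) and the dotted line is the median of the other chromosomes (0.015 and 0.020).

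Window by window, the difference ran the whole length of the short arm and was smaller beyond the centromere. All 12 short-arm windows of 10 Mb with at least 10 members had a median below 0, from -0.35 to -0.145. On the long arm 7 of the 11 windows did, with medians from -0.145 to 0.10. The short-arm window nearest 0 was 100 to 110 Mb, and the lowest long-arm window, 150 to 160 Mb, was level with it. In 11 of the 12 short-arm windows the 3 SDS22-degron libraries were all lower than the 3 parental ones, as in 5 of 11 long-arm windows. Over the 262 such windows of the other chromosomes, 19.1% had no overlap in that direction and 36.6% in the other. Windows at or below the short-arm median of -0.21 were found 33 times on the other chromosomes, 26 of them on chromosomes 3 and 16, whose own medians were -0.32 and -0.31. Chromosome 1 had the third lowest median of the chromosomes, at -0.15.

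The window from 80 to 90 Mb was the lowest, with a median of -0.35 over 30 members, 17 of them called lower and 1 higher. Its SDS22-degron libraries stood at -0.30, -0.26 and -0.44 and its parental libraries at 0.0088, -0.0084 and -0.038, with no overlap. The window from 70 to 80 Mb followed at -0.30 over 19 members, 12 called lower and none higher, with SDS22-degron libraries at -0.23, -0.26 and -0.37. Its members with the smallest p were SLC44A5, of the choline transporter-like family, and FUBP1, a single-stranded DNA-binding regulator, at log2 fold changes of -1.15 and -0.43. At the short-arm end, 0 to 10 Mb and 10 to 20 Mb had medians of -0.22 and -0.26 over 95 and 68 members. Just before the centromere, 110 to 120 Mb was at -0.24, and only 4 members started between 120 and 123 Mb, with a median of -0.51.

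On the long arm the window from 150 to 160 Mb was the fullest of the chromosome, with 136 members. Its median was -0.145, and its libraries did not overlap. Of its members 81.6% had a value below 0, against 79.4% over the whole short arm. The highest medians were in the windows from 200 to 210 Mb, at 0.097 over 70 members, and from 190 to 200 Mb, at 0.093 over 10. In the former the SDS22-degron libraries were 0.11, 0.097 and 0.10 and the parental ones 0.011, -0.024 and 0.043. In the latter the libraries of the lines overlapped, and 2 members were called higher and 4 lower. The window from 200 to 210 Mb was the only one of chromosome 1 in which all untreated SDS22-degron libraries lay above the parental ones. The same held for 36.6% of the windows of the other chromosomes. Of the 70 members of this window, 13 were called higher and 9 lower. Of the protein-coding genes of the other chromosomes with the same read limit, 16.7% and 16.4% were. These counts are therefore not read as a result about the window. Its members with the smallest p were NR5A2, an orphan nuclear receptor, and PLXNA2, a semaphorin receptor, at log2 fold changes of 2.54 ± 0.21 and 3.06 ± 0.28 (± SE, n = 3 per group). In the 190 to 200 Mb window these were CDC73, a subunit of the PAF1 transcription elongation complex, and the kinase gene NEK7, both lower, at -0.29 and -0.44.

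**Figure D3:**
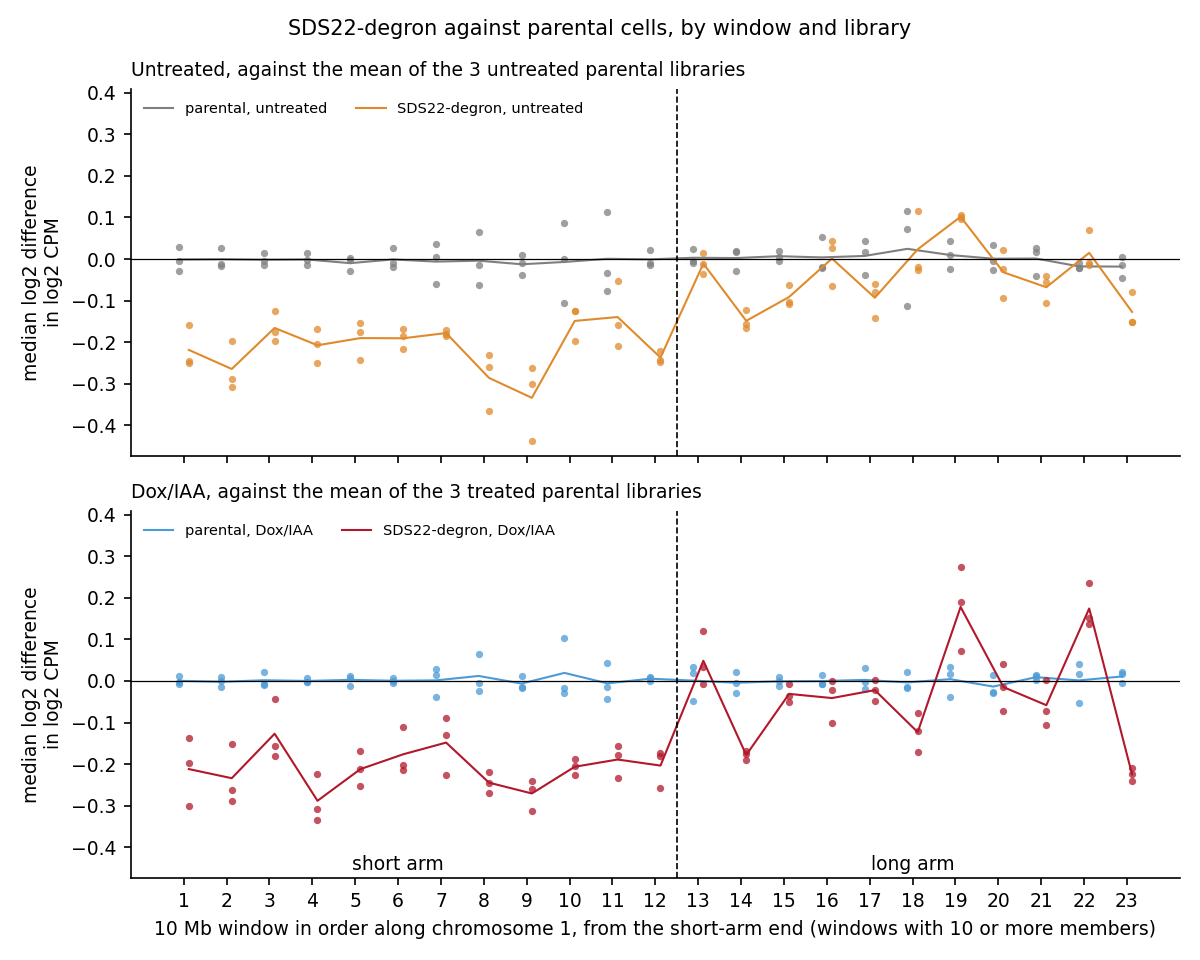
Median log2 CPM difference per 10 Mb window of chromosome 1 in order from the short-arm end, for windows with at least 10 members, in untreated (upper) and Dox/IAA-treated cells (lower). Points are libraries, lines join the means of 3 libraries, 0 is the mean of the parental libraries of the same treatment, and the dashed line separates the arms. The 12 short-arm windows lie below 0 in both panels.

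After Dox/IAA the median difference between the lines was much the same on the short arm, but its members were spread more widely. Members below 0 made up 70.5%, against 48.0% on the other chromosomes. The quartiles were -0.47 and 0.074, against -0.24 and 0.28 on the other chromosomes. The short-arm median was -0.20 (86.8% of the treated parental level), with 318 members called lower and 84 higher, and the long-arm median was -0.045, with 153 lower and 110 higher. Of all genes tested, 23.1% were called lower and 21.8% higher in this comparison. Of the protein-coding genes of the other chromosomes with the same read limit, 24.4% and 26.5% were. All 12 short-arm windows were below 0, between -0.28 and -0.12, and in all 12 the libraries did not overlap, as in 17.9% of the windows of the other chromosomes. On the long arm 3 windows were wholly lower, and 2 had every SDS22-degron library above the parental ones. The latter was seen in 43.9% of the windows of the other chromosomes. The wholly lower ones included 190 to 200 Mb, at -0.12 over 10 members, against 0.093 between the untreated lines. The untreated and treated comparisons use no library in common, though both compare the same lines. Over the 23 windows their medians had a Pearson correlation of 0.80 and a Spearman correlation of 0.84, given as a description since neighbouring windows are not independent. On the short arm 218 members were called lower in both, out of 297 and 318. The same overlap was not counted for the other chromosomes or over all genes, so it is not read as a trait of the arm. The lowest treated windows were 80 to 90 Mb and 90 to 100 Mb, at -0.28 and -0.28, and the highest were 200 to 210 Mb and 230 to 240 Mb, at 0.20 and 0.18.

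In the lowest window, 7 members in a row between TTLL7 and SSX2IP, chr1:83865028-84690803, were called lower in both comparisons. This stretch was picked after its values were seen, and the treated call of CTBS, within it, was lost in 5 alternatives, such as without parental Dox/IAA replicate 1 (adjusted p = 0.124 in edgeR's quasi-likelihood test). SAMD13 (chr1:84298366-84389957) had 11.6, 8.83 and 11.7 CPM in the untreated parental libraries and 1.46, 1.17 and 1.37 in the untreated SDS22-degron libraries. PRKACB (chr1:84078062-84238498), which encodes a catalytic subunit of protein kinase A, had 221, 207 and 226 CPM and 41.0, 49.2 and 48.1. GNG5 (chr1:84498325-84506565), a gamma subunit of heterotrimeric G proteins, had 80.4, 80.2 and 77.9 and 32.2, 33.7 and 35.0. In each of them every SDS22-degron library was well under every parental one. The log2 fold change was -3.00 ± 0.19 for SAMD13 (8.01-fold lower, adjusted p = 3.95e-09 in edgeR's quasi-likelihood test), -2.24 ± 0.088 for PRKACB (4.72-fold lower, adjusted p = 3.62e-12) and -1.24 ± 0.071 for GNG5 (2.36-fold lower, adjusted p = 6.45e-10).

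The other members of the stretch were lower by less. They were TTLL7 (-0.88), a tubulin glutamylase gene, RPF1 (-0.78), which acts in ribosome production, CTBS (-0.80), a lysosomal glycosidase gene, and SSX2IP (-0.69), whose product acts at centrosomes and cell junctions. After Dox/IAA the 7 values ranged from -2.24 for SAMD13 to -0.37 for CTBS, with medians over the 7 genes of -0.88 untreated and -0.85 treated. GNG5 and CTBS overlap SPATA1, and SAMD13 overlaps UOX and an unnamed transcript. PRKACB also overlaps an unnamed transcript, and TTLL7 overlaps TTLL7-IT1. Reads in the overlaps may have been assigned to either gene. Counting DNAJB4, the preceding member in order but at chr1:77979175-78017964, 6 successive members from DNAJB4 to GNG5 were lower by more than 0.5 on the log2 scale in both comparisons, though DNAJB4 was at -0.43 in treated cells without parental Dox/IAA replicate 2 and at -0.54 in untreated cells without untreated parental replicate 2. No longer run in either direction was found on any chromosome, and a run of the same length, higher, lay on chromosome 5 (CCDC69 to ATOX1). Without DNAJB4, which overlaps GIPC2 and an unnamed transcript, the run would be shorter than that on chromosome 5. The stretch was picked on these same values, so its rank among runs is a description only. Beyond SSX2IP the untreated and treated values were -0.36 and -0.19 for LPAR3 and -0.11 and -0.80 for MCOLN2, which was called lower in treated cells only. ZNHIT6 (-1.11 and -0.75) and ODF2L (-0.70 and -0.42) were lower again further on, and SYDE2 was higher at 0.65 (adjusted p = 0.00168 in edgeR's quasi-likelihood test).

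Single genes stood out on both arms. Those named next for each comparison were ranked among called members that averaged at least 10 CPM and whose libraries did not overlap (overlap was not asked for the interaction). PDE4B (chr1:65792514-66374579), a cAMP phosphodiesterase gene, had 277, 230.5 and 238 CPM in untreated parental and 60.1, 52.1 and 44.5 in untreated SDS22-degron libraries. PHGDH (chr1:119659798-119744215), the first enzyme of serine synthesis, had 194, 184 and 187 and 80.9, 73.0 and 79.9. The groups did not overlap for either gene, and the log2 fold changes were -2.25 ± 0.10 (adjusted p = 2.15e-11) and -1.28 ± 0.088 (adjusted p = 9.09e-09) in edgeR's quasi-likelihood test. ZNHIT6, which acts in assembly of small nucleolar particles, was lower by 1.11 at 2.15-fold. Against the direction of their arm, HPCAL4 (a neuronal calcium sensor gene, 1.43), F3 (tissue factor, which starts coagulation, 1.41), HIVEP3 (a zinc finger factor, 1.28), RIMKLA (0.97) and SORT1 (the sorting receptor sortilin, 0.85) were the highest named short-arm members.

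On the long arm S100A14 (chr1:153614255-153616986), a calcium-binding protein gene, was among the lowest of these at -1.23 ± 0.15 (adjusted p = 8.89e-06 in edgeR's quasi-likelihood test), with 120.5, 84.4 and 105 CPM in untreated parental and 39.8, 43.8 and 48.2 in untreated SDS22-degron libraries. The libraries of the lines did not overlap. Lower too were its family member S100A16 (-1.10), the epithelial transcription factor gene ELF3 (-1.12) and the inositol phosphate kinase gene ITPKB (-0.78). TNFSF18 (chr1:173039960-173050963), the ligand of the T cell receptor GITR, was the highest of them, with 16.2, 12.7 and 18.95 CPM against 49.2, 49.2 and 65.6 and a log2 fold change of 1.78 ± 0.15. C1orf116 (1.45), the G protein gamma subunit gene GNG4 (1.17), the kinesin gene KIF21B (0.79) and the histone gene HIST3H2A (0.78) came next. PLXNA2 and NR5A2 had larger values at lower levels. Reads of HIST3H2A may be shared with near-identical histone copies, as for the 22 members of the NBPF, FAM72, SRGAP2, PPIAL4, HIST, GPR89 and NOTCH2 groups, 16 of them on the long arm.

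In treated cells the lowest by this ranking were PDE4B (-1.66) and PRKACB (-1.80) on the short arm and 2 cell division genes, KIF14 (-1.43) and NUF2 (-1.42), on the long arm. The highest were IFI6 (1.32) and JUN (1.29) on the short arm, and TNFSF18 (3.64) and ATF3 (1.87) on the long arm. JUN and ATF3 encode stress-responsive transcription factors, and IFI6 is an interferon-induced gene.

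Dox/IAA itself moved neither arm far. In parental cells the median log2 fold change, treated minus untreated, was 0.044 on the short arm and 0.039 on the long arm, with 154 short-arm members called higher and 108 lower and 101 long-arm members higher and 74 lower. Of all genes tested, 15.9% were called higher and 15.7% lower, and of the protein-coding genes of the other chromosomes with the same read limit 20.2% and 15.7%. Scaling by library size alone changed this split, to 199 higher and 74 lower on the short arm and 139 higher and 52 lower on the long arm. Window medians ran from -0.11 to 0.14, and libraries did not overlap upward in 3 of 12 short-arm and 4 of 11 long-arm windows, against 24.8% of the other windows, and downward in 1 long-arm window, against 6.49%. The highest were 60 to 70 Mb and 200 to 210 Mb, at 0.14 and 0.13. The lowest were 240 Mb to the long-arm end and 140 to 150 Mb, at -0.11 and -0.050. In the windows from 60 to 70 Mb and from 140 to 150 Mb the libraries overlapped. The treated libraries of the former were at -0.0048, 0.20 and 0.15.

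Among the ranked genes, single ones responded far more than the arms in parental cells. TNFSF18 fell from 16.2, 12.7 and 18.95 CPM to 0.600, 0.632 and 1.34, a log2 fold change of -4.21 ± 0.28 (adjusted p = 1.34e-08 in edgeR's quasi-likelihood test). RGS2, a regulator of G protein signalling, fell by 1.60 on the log2 scale. On the short arm AK4, a mitochondrial adenylate kinase gene, and the glycine transporter gene SLC6A9 were lowest by the same ranking at -0.85 and -0.72, the latter at -0.48 without untreated parental replicate 1. HPCAL4 (1.21) rose on the short arm, and C1orf116 (1.32) and the semaphorin gene SEMA6C (1.06) on the long arm.

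In SDS22-degron cells the medians were 0.068 on the short arm and 0.085 on the long arm, with 235 higher and 182 lower calls on the former and 185 and 120 on the latter. Over all genes tested 26% were called higher and 25.5% lower, and over the protein-coding genes of the other chromosomes with the same read limit 32.1% and 26.3%, close to the short arm's 33.4% and 25.9%. No overlap upward was seen in 5 of 12 short-arm and 6 of 11 long-arm windows, against 44.3% of the other windows, and none was wholly lower, against 10.3%. The highest were 200 to 210 Mb at 0.28 and 180 to 190 Mb at 0.24, where all treated libraries (0.32, 0.21 and 0.30, and 0.21, 0.22 and 0.29) exceeded the untreated ones. The lowest were 240 Mb to the end at -0.091 and 90 to 100 Mb at -0.042, with overlapping libraries. The short-arm median was 0.026 without SDS22-degron Dox/IAA replicate 3.

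**Figure D4:**
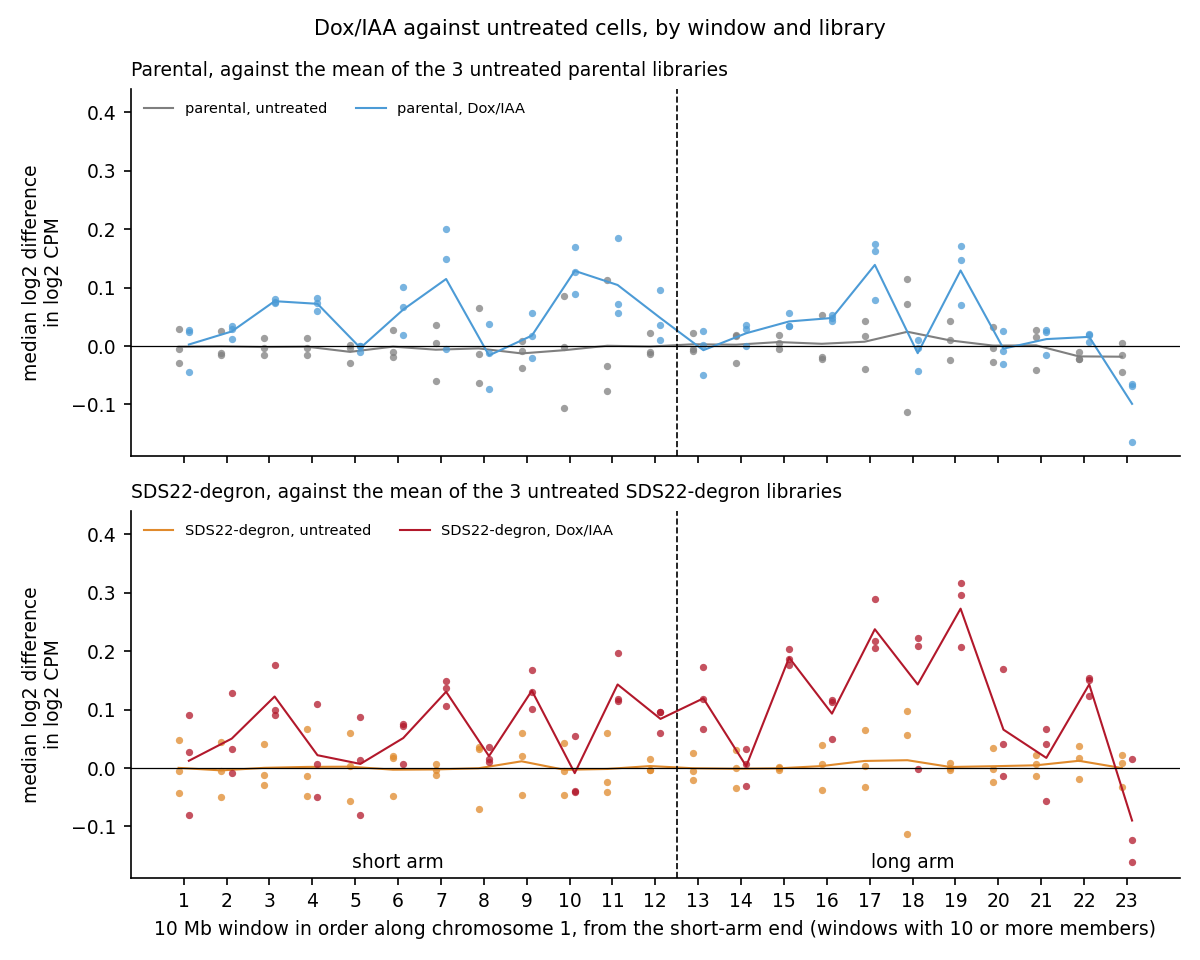
Median log2 CPM difference between Dox/IAA-treated and untreated libraries per 10 Mb window of chromosome 1, for parental (upper) and SDS22-degron cells (lower), each against the mean of its own 3 untreated libraries. Points are libraries and lines join the means of 3. Most windows lie close to 0, the window from 200 to 210 Mb is the highest in SDS22-degron cells, and the last window lies below 0 on average in both lines.

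In treated SDS22-degron cells the 3 lowest ranked genes of the short arm act in cell division or replication. CDC20 (chr1:43358955-43363203), the activator of the anaphase-promoting complex, went from 183, 191 and 202 CPM untreated to 62.1, 59.5 and 54.9 treated, a log2 fold change of -1.71 ± 0.12 (adjusted p = 4.86e-09 in edgeR's quasi-likelihood test). The treated libraries were all far below the untreated ones. ORC1 (-1.54), a subunit of the origin recognition complex, and RCC1 (-1.53), the exchange factor of Ran, followed on the short arm. RCC1 overlaps the non-coding SNHG3, and their reads may be mixed. On the long arm TNFSF18 fell by 2.35, MARC1, a mitochondrial reductase gene, by 1.54 and the kinetochore gene CENPF by 1.53.

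The gains were of other kinds. IFI6 (chr1:27666061-27672218) rose from 10.5, 9.70 and 9.87 CPM to 54.9, 45.4 and 46.0, a log2 fold change of 2.28 ± 0.14 (adjusted p = 1.33e-09 in edgeR's quasi-likelihood test). All treated libraries exceeded the untreated ones. HSPG2 (the basement membrane proteoglycan perlecan, 1.56) and DHRS3 (a retinaldehyde reductase, 1.42) rose on the short arm. MR1 (an antigen-presenting molecule for vitamin B metabolites, 1.91), PBXIP1 (1.60) and KDM5B (a histone demethylase, 1.502) rose on the long arm.

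The interaction asks whether Dox/IAA changed a gene differently in the 2 lines. Its median was -0.014 on the short arm and 0.030 on the long arm. There were 51 higher and 70 lower calls on the short arm (7.24% and 9.94%) and 46 and 47 on the long arm (8.91% and 9.11%). Of all genes tested, 6.03% and 8.35% were called higher and lower. Of the protein-coding genes of the other chromosomes with the same read limit, 7.82% and 9.57% were, close to both arms. Both medians are near 0, and with 1 library left out the short-arm one ran from -0.056 (without SDS22-degron Dox/IAA replicate 3) to 0.0099 (without untreated SDS22-degron replicate 3) and the long-arm one from 0.00068 (without untreated parental replicate 1) to 0.038. The 51 higher short-arm calls became 30 without SDS22-degron Dox/IAA replicate 3 and 32 without untreated SDS22-degron replicate 1. The lowest windows were 240 Mb to the end (-0.12) and 90 to 100 Mb (-0.11), and the highest were 230 to 240 Mb (0.16) and 80 to 90 Mb (0.16). CLSPN (claspin of the replication checkpoint, -1.43) and CDC20 (-1.40) were lowest on the short arm, and KIF14 (-1.59) and ASPM (-1.48), both of mitosis, on the long arm, by the same ranking. SESN2 (a stress-induced sestrin, 1.52) and IFI6 (1.27) were highest on the short arm, and TNFSF18 (1.86) and ELF3 (1.54) on the long arm. TNFSF18 fell in both lines, by less in SDS22-degron cells. SESN2 had 95.7, 36.2 and 42.3 CPM in untreated and 36.2, 24.02 and 39.3 in treated parental libraries, which overlap, against 30.4, 31.8 and 34.6 and 52.0, 52.3 and 55.3 in SDS22-degron libraries, which do not. Its first untreated parental library stands far above the other two, and without it the interaction was 0.95 (adjusted p = 0.00333 in edgeR's quasi-likelihood test). ELF3 was, in parental and SDS22-degron cells, at -1.05 and 0.49, with adjusted p = 5.49e-06 and 0.00248 in edgeR's quasi-likelihood test.

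A pair of neighbouring receptor genes on the short arm was read only in treated libraries. They were chosen after their values were seen. IL23R (chr1:67138907-67259979, plus strand), a subunit of the interleukin-23 receptor, had 0 reads in all 6 untreated libraries, 65, 62 and 68 reads in the treated parental libraries and 51, 70 and 74 in the treated SDS22-degron libraries. IL12RB2 (chr1:67307364-67396900, plus strand), a subunit of the interleukin-12 receptor that starts downstream of it, had 0 reads in the untreated libraries, 19, 19 and 24 in treated parental and 7, 12 and 17 in treated SDS22-degron libraries. Both lines gave reads after Dox/IAA and neither did before. Set against a floor of 3 reads over the 3 untreated libraries, IL23R was 64.3-fold higher in parental and 72.6-fold higher in SDS22-degron cells. IL12RB2 was 20.4-fold and 13.4-fold higher. The floor covers the untreated side only, so a fold could be smaller within the counting error of the treated reads. IL23R entered the members only through its treated libraries, so no test is given, and IL12RB2, with 98 summed reads, is not a member. C1orf141, which overlaps IL23R on the other strand, had 0 reads throughout. Over all genes, 3 had 0 reads in every untreated library and at least 5 in every treated one, and the third was TMPRSS11E on chromosome 4. No interval is given for these folds.

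Lists of genes drawn up from general knowledge were counted on the chromosome. Of 26 cell division genes on chromosome 1, none was called higher and 10 were lower between the untreated lines, with a median of -0.24. Over all genes tested 15% were lower, and on the short arm 42.2%, so the untreated count is no result about this list. Between the treated lines 25 were lower, against 23.1% of all genes, with a median of -1.20. With Dox/IAA 7 of them fell in parental and 23 in SDS22-degron cells, at medians of -0.17 and -1.18, where 15.7% and 25.5% of all genes fell, and 19 were lower in the interaction, against 8.35%. Of 12 DNA replication and repair genes, 6 were lower between the untreated lines (median -0.23), 10 fell with Dox/IAA in SDS22-degron cells (median -0.94), and in parental cells 3 fell and 1 rose. These 2 lists had the lowest medians of the lists counted after Dox/IAA in SDS22-degron cells. Without their genes the short-arm median between the lines was -0.21 untreated and -0.19 treated.

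Genes known from chromosome 1 changes in tumours were counted too. Of 16 short-arm genes often named in loss of 1p, 7 were lower and 1 higher between the untreated lines (median -0.19), and 8 and 3 between the treated lines (median -0.29). The arm as a whole had 42.2% and 45.2% lower calls, close to the share of this list. Among them ERRFI1, a feedback inhibitor of EGF receptor signalling, was lowest at -1.07. Of 20 long-arm genes often named in gain of 1q, 17 were members, 7 of them lower and 1 higher when untreated (median -0.15) and 9 and 1 when treated (median -0.21), beside 23.4% and 29.7% lower calls on the long arm and 15% and 23.1% over all genes. Some genes stand in more than 1 list, such as CENPF, which is in the 1q gain and the cell division lists. Of 15 S100 genes, 9 were members, 5 were lower and 1 higher when untreated (median -0.26), and 7 were lower when treated (median -0.44). With Dox/IAA 4 S100 genes fell and 1 rose in parental cells, 5 fell and 1 rose in SDS22-degron cells, and none was called in the interaction. Of all genes 15.7% fell and 15.9% rose in parental cells and 25.5% and 26% in SDS22-degron cells, and with 9 members the S100 counts are small. The 7 GBP genes of the short arm, interferon-induced GTPases, all stayed under 200 summed reads and none is a member.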

How the data were processed

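The labels and the study's methods describe poly-A selected, strand-marking libraries of HCT116 cells sequenced as single reads. The deposited table holds raw counts of reads per gene and, for each gene, its position (build GRCh38), length, type and GC percent as the authors listed them. The submitters' processing notes name cutadapt 1.15, Bowtie2 2.3.3.1, STAR 2.5.2b, SAMtools 1.5 and featureCounts 1.5.3. The annotation release, and whether counting used the strand, are not given in the sources used here, so reads of overlapping genes may be mixed.

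Counts of the 12 libraries were fitted in 1 model with 4 group means in edgeR 4.0.16 (R 4.3.3), with TMM factors, filterByExpr (minimum count 10) and the quasi-likelihood test. A gene was called at a Benjamini-Hochberg adjusted p under 0.05 over the 16657 genes tested. The 5 comparisons were the lines untreated, the lines treated, Dox/IAA in each line, and the interaction. Fold changes are edgeR's estimates, and CPM values of single libraries are scaled by TMM. Medians over the 2 arms and over 10 Mb windows of the start position carry no test, since neighbouring genes are not replicates, and the same medians were computed per library from log2 CPM with a prior count of 2. Windows with at least 10 members were compared. The script was checked on simulated counts.

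The members, the windows and the lists were chosen with earlier results of these data known. Named windows are the 2 highest and 2 lowest of a comparison. Named genes averaged at least 10 CPM and passed the threshold on the adjusted p. Their libraries did not overlap, which was not asked for the interaction. Per arm, the 5 highest and 5 lowest were taken between the untreated lines. For Dox/IAA in SDS22-degron cells 3 and 3 were taken, and 2 and 2 otherwise. Added to these were the 2 members with the smallest p in each named window of the untreated comparison. Others are marked as chosen after their values were seen, or belong to a list. Some genes that met these rules are not reported here.

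The submitters call the libraries biological replicates from independent experiments. Same-numbered libraries deviated together in the parental line (correlations of 0.12 to 0.25 between untreated and treated) and between the treated lines (0.10 to 0.14), but not in every pair between the untreated lines (0.06 to 0.12) or within the SDS22-degron line (-0.01 to 0.10). The replicate number was therefore used as a block in an alternative fit. Other alternatives were DESeq2 1.42.0, the likelihood ratio test, other scalings and filters, a correction for GC content, libraries left out in turn, and other window sizes and member limits. Reads are not independent molecules, so intervals from counts cover counting error only.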

Additional observations from a re-analysis of the deposited data

Results flagged for a closer look

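For 20 of the genes named for their Dox/IAA response or interaction, the effect of Dox/IAA differed between the lines by the interaction term of edgeR's quasi-likelihood test, and the value given is the log2 fold change in SDS22-degron cells minus that in parental cells. It was below 0 for KIF14 (-1.59), ASPM (-1.48), CLSPN (-1.43), CDC20 (-1.40), HPCAL4 (-1.33), CENPF (-1.28), ORC1 (-1.19), RCC1 (-0.98) and MARC1 (-0.39). Of these, KIF14, ASPM, CLSPN, CDC20, CENPF, ORC1 and RCC1 act in cell division or DNA replication and lie on both arms.

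It was above 0 for TNFSF18 (1.86), ELF3 (1.54), SESN2 (1.52), MR1 (1.36), IFI6 (1.27), DHRS3 (1.19), PBXIP1 (1.08), RGS2 (1.05), SLC6A9 (0.78), KDM5B (0.77) and HSPG2 (0.66). The SESN2 value rests in part on 1 untreated parental library of 95.7 CPM, against 36.2 and 42.3 in the others, and was 0.95 without it. SLC6A9 draws on the same library, which had 23.8 CPM of it, against 13.4 and 16.9 in the others. The response of SLC6A9 in parental cells was -0.72, and -0.48 without that library. A value above 0 need not mean a rise. TNFSF18 fell in both lines, by less in SDS22-degron cells, and had few reads in treated parental cells. All the genes flagged here were chosen among many for large responses, and no cause of the differences was tested.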

How the results depend on the processing

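Between the untreated lines the short-arm median of -0.21 stayed below 0 in every alternative run, at -0.18 with library size alone, -0.18 with upper quartile factors and -0.17 as a mean. The long-arm median of -0.083 moved more, to -0.057 with library size alone, -0.095 without a filter, -0.048 with upper quartile factors, -0.098 for members with 1000 or more reads, -0.071 for all RNA types and -0.0098 as a mean. Between the treated lines the long-arm median was -0.059 without a filter, -0.013 with upper quartile factors, -0.059 for members with 1000 or more reads and -0.0020 as a mean. For Dox/IAA in parental cells the short-arm and long-arm medians were 0.10 and 0.097 with library size alone, 0.068 and 0.062 with upper quartile factors, 0.014 and 0.024 for members with 1000 or more reads, 0.014 and 0.0061 for all RNA types, and 0.090 and 0.047 as means. In SDS22-degron cells they were 0.11 and 0.13 with library size alone and 0.026 and 0.041 for all RNA types, and the long arm was at 0.11 with upper quartile factors, 0.12 with a GC correction, alone or with the replicate block, 0.12 without the cell division and replication lists and 0.055 as a mean. The long-arm interaction was 0.011 with library size alone and 0.0078 as a mean. With 1 library left out in turn, the medians of the untreated lines ran from -0.22 to -0.18 on the short and -0.095 to -0.054 on the long arm, and that of the treated lines from -0.062 to -0.032 on the long arm. For Dox/IAA they ran from 0.026 to 0.077 on the short arm of SDS22-degron cells and from 0.027 to 0.044 on the long arm of parental cells, and for the interaction from -0.056 to 0.0099 on the short and from 0.00068 to 0.038 on the long arm. The higher interaction calls ran from 30 to 53 on the short arm.

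With the replicate block, 332 short-arm members were lower and 52 higher between the untreated lines, and no count of calls moved by more than 1.5 times. With the block and the GC correction together, the higher interaction calls on the long arm went from 46 to 70. A GC correction left the short-arm median at -0.21. Among the genes named, the treated line difference changed sign, never with a call, for SLC44A5 (-0.0099, and 5.4e-05 with DESeq2, 0.00072 with RLE factors, 0.00012 with only the groups compared, 0.022 with upper quartile factors, 0.074 and 0.073 with the GC correction without and with the block, and from -0.15 to 0.13 with 1 library left out) and, with the GC correction without and with the block, for CDC73 (0.025 and 0.027) and NEK7 (0.019 and 0.020). CTBS, ITPKB and LPAR3 lost their calls in 5, 5 and 2 alternatives, at adjusted p from 0.0507 to 0.176 (edgeR or DESeq2). The causes were not tested. The depth limits the least-read members most: 82 short-arm members had under 1000 reads in all.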
